A study of Homo sapiens with 22 samples.

Results

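Ligands of the epidermal growth factor receptor (EGFR) and feedback inhibitors of the kinase pathway below it were followed in Caco-2 cells, which derive from a human adenocarcinoma of the colon and are labelled as undifferentiated. The set holds 10 of the 61487 genes in the count table and was fixed by name: the ligands AREG, EREG, HBEGF and TGFA, the MAP kinase phosphatases DUSP4, DUSP5 and DUSP6, the Sprouty inhibitors SPRY2 and SPRY4, and PHLDA1. The cells, of wild-type genotype, grew for 48 h in medium of which 10% was 1 of 4 additions. These were the vehicle (PBS, n = 4), faecal water (FW) from untreated mice (FWctl, n = 7), FW from those mice once antibiotics had depleted their bacteria (FWatb, n = 7), and the cocktail of neomycin, vancomycin and meropenem without faeces (ATB, n = 4). The medium of every group also contained an antibiotic-antimycotic supplement. FW is the supernatant of mouse faeces homogenised in PBS, and the 7 preparations of each kind are biological replicates. Total RNA was sequenced after ribosomal RNA depletion. Since RNA of whole cultures was counted, fewer cells expressing a gene and less RNA of it per cell cannot be told apart.

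EGFR ligands are made as membrane-bound precursors, cut free by ADAM proteases, and bind EGFR on the same or a neighbouring cell. The receptor then activates RAS and, through a chain of kinases, ERK, which moves to the nucleus and raises transcription of immediate-early genes, of some of the ligands themselves, and of inhibitors that switch the pathway off again. DUSP6 removes the activating phosphates from ERK in the cytoplasm, DUSP4 and DUSP5 do so in the nucleus, and Sprouty proteins act upstream, between receptor and ERK. In the intestinal epithelium this pathway drives proliferation and repair, and transcript levels of DUSP6, SPRY2, SPRY4 and PHLDA1 are widely used as a readout of ERK activity.

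Total counts ranged from 7118302 to 18726967 per sample. By the percentage of their counts that fell on ribosomal DNA transcripts, the libraries formed a set of 14 (1.87 to 8.19%) and a set of 8 (0.016 to 0.081%), although the labels give no batch. All 7 FWatb libraries, 4 FWctl, 2 PBS and 1 ATB library were in the first set. The study left out 1 FWctl sample as an outlier without naming it. FWctl replicate 1 was taken to be that sample and is given separately, so that FWctl has n = 6 below. The epithelial markers VIL1, EPCAM, CDH1, CDX2, KRT8 and KRT18 had at least 802.8 normalised reads in every sample, while KRT20, a marker of differentiated cells, had 0 to 48.4. KRT20 fell under FWctl against PBS (-2.74, adjusted p = 7.71e-06) and was higher under FWatb than FWctl (3.22, adjusted p = 3.92e-08), the directions of DUSP6 and SPRY4, and its part in the results was not tested. Among markers of other cell types, the immune genes PTPRC and CD68 had at most 3 reads and CD3E at most 16, with a summed level of 0.163 to 0.712 CPM under PBS, 0.13 to 0.402 under FWctl, 0.301 to 0.991 under FWatb and 0.281 to 0.895 under ATB. Of the endothelial markers, PECAM1 had 20.5 to 104.0 normalised reads and was lower under FWctl than PBS (adjusted p = 1.7e-05), while VWF had 7.39 to 62.2 and was higher (adjusted p = 1.52e-07). Their summed level was 5.42 to 6.19 CPM under PBS, 3.56 to 6.65 under FWctl, 5.34 to 9.14 under FWatb and 7.22 to 9.69 under ATB. The fibroblast gene DCN had at most 2 reads, and COL3A1 had 1.93 to 25.0 normalised reads (0.06 under FWctl against PBS, adjusted p = 0.914). COL1A1, another fibroblast marker, was 81.0 to 93.5 under PBS and 5.12 to 16.2 under FWctl. Summed over the 3 fibroblast markers, the range was 7.28 to 8.08 CPM under PBS, 1.41 to 2.27 under FWctl, 6.72 to 8.90 under FWatb and 6.16 to 11.0 under ATB. The part of these immune, endothelial and fibroblast markers in the results was not tested.

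The 10 genes spanned a wide range of levels. On a per-length scale (normalised CPM per kilobase of exons, mean of 21 samples), AREG had 106 and EREG 34.8, followed by PHLDA1 at 4.59, DUSP5 at 3.76, DUSP6 at 3.22, SPRY2 at 2.76, HBEGF at 2.31 and SPRY4 at 1.95. DUSP4 was low at 0.18, with 6 to 32 reads per sample. TGFA had 4 reads in 21 libraries, 3 of them under PBS and 1 under ATB, and was not tested. A count of 0 allows up to 3 reads, which is 0.16 to 0.421 CPM depending on the library. Of the EGFR ligands fixed by name, amphiregulin and epiregulin therefore supplied nearly all the transcript, with HBEGF a small remainder.

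AREG (ENSG00000109321, GRCh38 chromosome 4, 74445136 to 74455005, plus strand) and EREG (ENSG00000124882, 74365145 to 74388749, plus strand) are neighbours 56387 bases apart. EPGN lies 48356 bases before EREG and BTC 289754 bases after AREG on the opposite strand, so that 4 EGFR ligand genes lie within 486054 bases. The 250 bases upstream of the start of AREG, EREG and DUSP6 are shown because the first and second rose and the last fell under FWctl. They come from RefSeq on GRCh38.p14 (AREG, chr4:74444886-74445135, plus strand. EREG, chr4:74364895-74365144, plus strand. DUSP6, chr12:89352502-89352751, minus strand), and capitals mark a match to the cyclic AMP response element.
AREG: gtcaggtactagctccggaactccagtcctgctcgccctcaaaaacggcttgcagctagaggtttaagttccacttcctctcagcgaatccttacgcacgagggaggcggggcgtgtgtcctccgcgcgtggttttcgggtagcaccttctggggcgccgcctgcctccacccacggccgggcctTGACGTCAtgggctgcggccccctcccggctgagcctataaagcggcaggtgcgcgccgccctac
EREG: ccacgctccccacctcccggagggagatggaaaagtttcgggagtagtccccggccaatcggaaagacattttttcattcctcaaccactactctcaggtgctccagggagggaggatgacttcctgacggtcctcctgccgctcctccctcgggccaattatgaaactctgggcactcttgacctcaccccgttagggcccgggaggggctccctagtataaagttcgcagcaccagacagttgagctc
DUSP6: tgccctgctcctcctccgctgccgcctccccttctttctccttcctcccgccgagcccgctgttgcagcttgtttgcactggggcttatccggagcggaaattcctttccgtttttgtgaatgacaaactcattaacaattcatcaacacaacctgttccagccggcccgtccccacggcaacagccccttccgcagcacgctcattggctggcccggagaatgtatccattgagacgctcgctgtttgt
Both strands were searched for TGACGTCA (the cyclic AMP response element), TGANTCA (AP-1), CCGGAAG (ETS factors), TGATGNAA (an ATF4 composite) and TGACNNNGC (an antioxidant element, whose letters can overlap the first). AREG held the palindrome TGACGTCA starting 65 bases before the start site, a motif found in 1.65% of the 35116 promoter windows of this length. None of the searched letters was in the windows of EREG, HBEGF, TGFA, DUSP6, SPRY2 or PHLDA1, and SPRY4 held only the antioxidant letters, which 10.9% of windows hold. AP-1 letters were in 6.57%, ETS letters in 8.52% and ATF4 letters in 3.14% of all windows. The promoter table gave 8 of the 10 members, and DUSP4 and DUSP5 were not searched.

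Under FWctl, the study's test of faecal water with an intact microbiota, members moved in both directions. The ligands AREG and EREG and the gene PHLDA1 rose 1.70- to 2.58-fold against PBS, while DUSP5, DUSP6, SPRY2 and SPRY4 and the ligand HBEGF fell 1.49- to 2.07-fold. Of 9 tested members, 3 were called higher and 5 lower, where a call is an adjusted p under 0.05 in the quasi-likelihood test of edgeR, with all tested genes in the Benjamini-Hochberg adjustment. The background was high, with 24.3% of all 20373 tested genes called higher and 22.1% lower. The members' median log2 fold change was -0.58, against 0.02 over all tested genes.

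**Figure D1:**
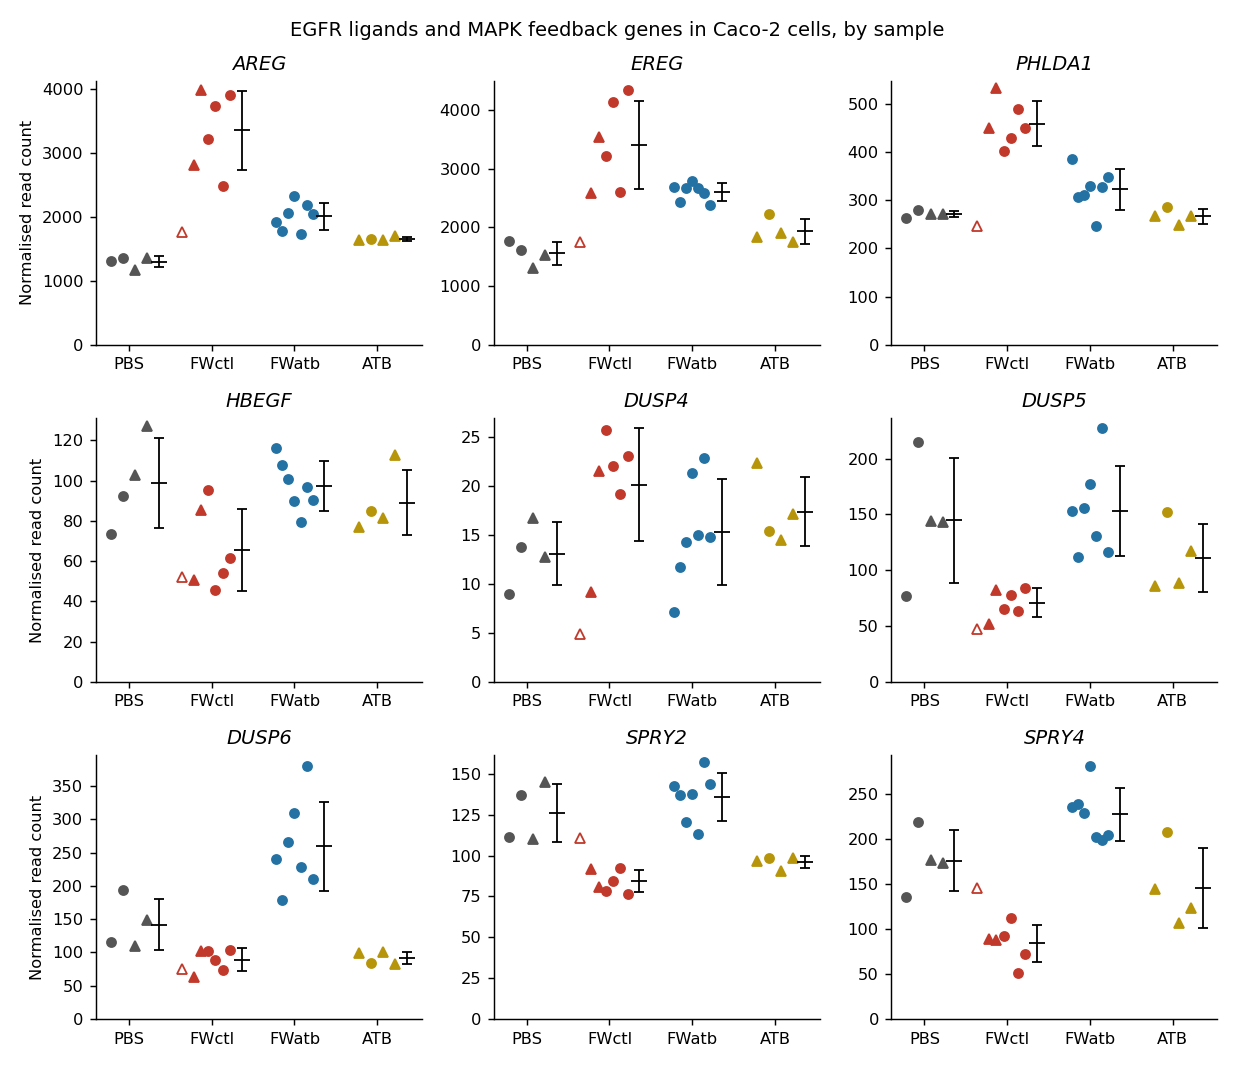
Normalised read counts (linear axis from 0) of the 9 members above the detection filter in every sample, by group. Filled circles are libraries with over 0.5% of counts on ribosomal DNA transcripts, filled triangles the others, the open triangle is FWctl replicate 1, and bars give mean ± SD without it. AREG under FWctl lay between 2483 and 3982 in the 6 filled points, above all 4 PBS samples, and DUSP6 under FWatb lay between 178.9 and 380.6.

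AREG encodes amphiregulin, a low-affinity EGFR ligand that epithelial cells secrete in repair. It had 1314, 1355, 1169 and 1358 normalised reads in the 4 PBS samples, and a lowest, median and highest value of 2483, 3473 and 3982 under FWctl, 1730, 2047 and 2326 under FWatb. The ATB samples had 1629, 1645, 1629 and 1703. Without FWctl replicate 1, the groups PBS, ATB, FWatb and FWctl were thus ordered upwards with no overlap between any neighbours. That replicate, at 1754, lay within the FWatb range. AREG rose by a log2 fold change of 1.37 (SE 0.10, adjusted p = 6.14e-15) under FWctl and 0.63 (SE 0.10, adjusted p = 1.7e-05) under FWatb. The step from FWctl down to FWatb was -0.74 (SE 0.08, adjusted p = 4.55e-10). Between ATB and PBS the difference of 0.35 did not pass (adjusted p = 0.175) although all 4 ATB samples were higher.

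EREG encodes epiregulin, a ligand that binds EGFR and ERBB4. Its PBS values were 1774, 1613, 1307 and 1535 normalised reads and its ATB values 1840, 2223, 1908 and 1745, so these groups overlapped. Under FWctl the lowest, median and highest values were 2585, 3373 and 4339, and under FWatb 2374, 2665 and 2793. Both FW groups lay above all PBS samples but overlapped each other. EREG rose by 1.13 (SE 0.11, adjusted p = 1.48e-11) on the log2 scale under FWctl and by 0.74 (SE 0.11, adjusted p = 4.38e-06) under FWatb, and was lower under FWatb than FWctl by -0.38 (SE 0.09, adjusted p = 0.000408). With FWctl replicate 1 included, the last difference was -0.26 and lost its call (adjusted p = 0.0769).

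HBEGF (ENSG00000113070, chromosome 5, 140332843 to 140346603, minus strand), which encodes heparin-binding EGF-like growth factor, moved against the other ligands. The PBS samples had 73.6, 92.3, 102.7 and 127 normalised reads and the ATB samples 76.8, 84.8, 81.6 and 112.7. The lowest, median and highest values were 45.7, 57.8 and 95.5 under FWctl and 79.2, 96.8 and 116.3 under FWatb. FWctl had the lowest values but overlapped every other group. HBEGF fell by 0.60 on the log2 scale under FWctl (SE 0.16, adjusted p = 0.00246). Within the libraries of high ribosomal DNA share this was -0.37 and no call (adjusted p = 0.204). It was 0.55 higher under FWatb than FWctl (SE 0.15, adjusted p = 0.00205).

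PHLDA1 (ENSG00000139289, chromosome 12, 76025447 to 76031776, minus strand) encodes a pleckstrin-homology-like protein and is transcribed in response to ERK. It had 263.5, 279.3, 272.4 and 270.7 normalised reads under PBS and 266.5, 285.1, 247.8 and 267.8 under ATB, which overlapped. Its lowest, median and highest values were 403.2, 449.8 and 533.3 under FWctl and 247.4, 328.2 and 385.8 under FWatb. FWctl lay above all other groups, and the rise against PBS was 0.76 (SE 0.09, adjusted p = 4.02e-09). Unlike DUSP6 and the Sprouty genes it was lower under FWatb than under FWctl, by -0.52 (SE 0.08, adjusted p = 5.31e-07). An antisense gene, PHLDA1-AS1, overlaps 553 of its 5913 exonic bases and had at most 3.84 normalised reads.

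Among the phosphatases, DUSP6 (ENSG00000139318, chromosome 12, 89347235 to 89352501, minus strand) is the cytoplasmic ERK phosphatase. It was the only member called lower under FWctl and higher under FWatb, each against PBS. The PBS samples had 116.3, 193.3, 109.3 and 149.1 normalised reads and the ATB samples 99.1, 84.8, 100.4 and 83.3. Its lowest, median and highest values were 62.8, 95.2 and 103.6 under FWctl and 178.9, 241 and 380.6 under FWatb. Every FWctl and ATB sample was below every PBS sample, and 6 of 7 FWatb samples were above them all. DUSP6 fell by 0.67 under FWctl (log2 scale, SE 0.17, adjusted p = 0.00117) and rose by 0.88 under FWatb (SE 0.15, adjusted p = 8.69e-05). The difference between FWatb and FWctl was 1.55 (SE 0.15, adjusted p = 6.33e-12), a 2.92-fold difference. An unnamed gene, ENSG00000274021, overlaps 1105 of its 3859 exonic bases on the other strand and had at most 10.8 normalised reads. DUSP5 (0.09), SPRY2 (0.11) and SPRY4 (0.37) also fell under FWctl and had positive values under FWatb, but the latter did not pass.

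DUSP5 (ENSG00000138166, chromosome 10, 110497907 to 110511533, plus strand), a nuclear phosphatase specific for ERK, was variable in the controls. The PBS samples had 76.6, 214.5, 144.2 and 143.1 normalised reads and the ATB samples 85.8, 152.2, 88.8 and 116.8. Lowest, median and highest values were 51.5, 71.7 and 84.5 under FWctl and 111.5, 153.1 and 227.3 under FWatb. FWctl overlapped PBS only through the lowest PBS sample, and all FWatb samples were above all FWctl samples. The change under FWctl was -1.02 (SE 0.20, adjusted p = 3.02e-05), a 2.03-fold lower level, and the difference of FWatb from FWctl was 1.11 (SE 0.18, adjusted p = 1.21e-06). FWatb did not differ from PBS by the test (0.09, 95% interval -0.25 to 0.43).

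DUSP4 (ENSG00000120875, chromosome 8, 29333064 to 29350684, minus strand), also a nuclear phosphatase, passed in no comparison. Its values were 8.95, 13.7, 16.8 and 12.8 normalised reads under PBS and 22.3, 15.4, 14.4 and 17.1 under ATB. The FWctl samples ran from 9.18 to 25.6 (median 21.8) and the FWatb samples from 7.12 to 22.9 (median 14.8). All groups overlapped, and FWctl against PBS was 0.55 (95% interval -0.02 to 1.13, adjusted p = 0.122). Without FWctl replicate 2, the lowest FWctl value, it was 0.75 with an adjusted p of 0.0272.

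The Sprouty genes SPRY2 (ENSG00000136158, chromosome 13, 80335976 to 80341126, minus strand) and SPRY4 (ENSG00000187678, chromosome 5, 142310427 to 142326455, minus strand) encode inhibitors that are made in response to ERK. SPRY2 had 111.4, 137.1, 110 and 145.1 normalised reads under PBS and 97.0, 98.2, 90.3 and 98.4 under ATB. Its lowest, median and highest values were 76.8, 82.8 and 92.5 under FWctl and 113.5, 137.5 and 157.4 under FWatb. FWctl and ATB were below all PBS samples, and FWatb was above all FWctl and ATB samples. SPRY2 fell by 0.58 under FWctl (log2 scale, SE 0.12, adjusted p = 5.14e-05), and FWatb was 0.69 above FWctl (SE 0.10, adjusted p = 3.76e-07).

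SPRY4 had 135.2, 218.2, 176.3 and 173.3 normalised reads under PBS and 144.4, 208.1, 106.9 and 123.6 under ATB. The lowest, median and highest values were 51.1, 88.2 and 111.7 under FWctl and 199.1, 229.2 and 281.3 under FWatb. FWctl was below all PBS samples and FWatb above all FWctl samples, while FWatb and PBS overlapped. SPRY4 fell by 1.05 under FWctl (log2 scale, SE 0.15, adjusted p = 1.74e-07) and was 1.43 higher under FWatb than FWctl (SE 0.13, adjusted p = 6.49e-12), a 2.69-fold difference. Its difference from PBS under FWatb, 0.37, did not pass (adjusted p = 0.068), but passed in 4 of 21 fits that each left out 1 sample (PBS replicate 2, FWctl replicate 7, FWatb replicate 6 or ATB replicate 2, adjusted p from 0.0338 to 0.0476).

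**Figure D2:**
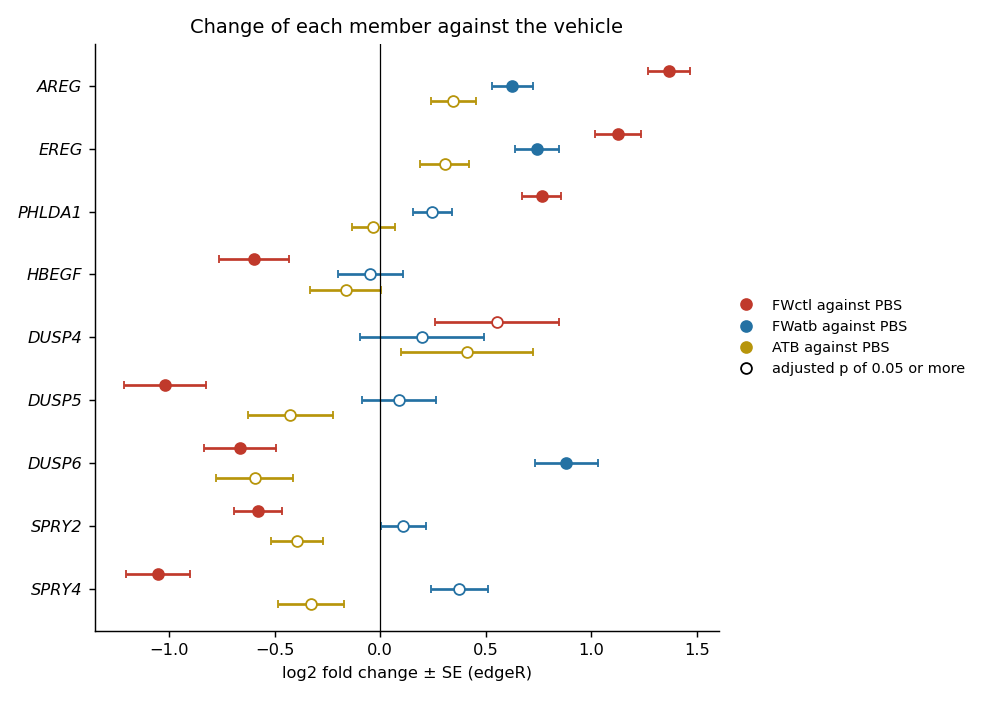
Log2 fold change (horizontal axis) of each tested member against PBS under FWctl, FWatb and ATB, with SE as bars. Filled points have an adjusted p under 0.05 and open points do not. Under FWctl the values run from -1.05 (SPRY4) to 1.37 (AREG), and under FWatb AREG, EREG and DUSP6 are filled.

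Under FWatb against PBS, 3 of 9 tested members were called higher (AREG, EREG, DUSP6) and 0 lower, with 6.04% of all tested genes called higher and 3.95% lower. By DESeq2 3 members were called, and 5 had an unadjusted p under 0.05 in edgeR. The share of all genes under that unadjusted threshold was not counted. PHLDA1, at 0.25, did not pass (adjusted p = 0.0753, or 0.0117 without FWatb replicate 6). Both FW comparisons share the 4 PBS samples.

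With the antibiotics alone, 0 of 9 tested members were called against PBS by edgeR and 0 of 8 by DESeq2, with 0.285% of all genes called in either direction. At an unadjusted p under 0.05 in edgeR, 6 passed, of which AREG (0.35) and EREG (0.31) were higher and DUSP5 (-0.43), DUSP6 (-0.59), SPRY2 (-0.39) and SPRY4 (-0.33) lower. DUSP6 and SPRY2 in all 4 ATB samples were below, and AREG above, all 4 PBS samples. The shares of all genes that passed unadjusted, or that did not overlap between these groups, were not counted. These members are therefore not set against a background. In a fit of only these groups 1 member, AREG, was called, and 1, DUSP6, without a filter on low counts.

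FWatb came from mice under antibiotics and FWctl from untreated mice. The FWatb libraries were all of high ribosomal DNA share, the FWctl libraries of both sets. Between these groups, 5 members were higher under FWatb (HBEGF, DUSP5, DUSP6, SPRY2, SPRY4) and 3 lower (AREG, EREG, PHLDA1) of 9 tested. Background calls were 23.4% higher and 25.4% lower. With a log2 fold change beyond 1 as well, as the study's definition asks, DUSP5, DUSP6 and SPRY4 passed, all higher, where the background was 6.12% higher and 6.6% lower. The labels do not tie the replicate numbers of the FW samples to mice. Within 6 same-numbered pairs, DUSP5, DUSP6, SPRY2 and SPRY4 were higher under FWatb in 6 of 6 and AREG, EREG and PHLDA1 lower in 6 of 6. HBEGF was higher in 5 of 6 and DUSP4 lower in 4 of 6. The share of all tested genes with the same direction in every pair was not counted. These pairs hold samples of the test above and are no separate test. The median log2 ratio within these pairs (counts + 1) was 1.43 for DUSP6, with a range of 1.02 to 2.36, and 1.45 for SPRY4, with a range of 0.85 to 1.94. For AREG it was -0.80 (range -1.11 to -0.19) and for EREG -0.30 (range -0.87 to -0.01).

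**Figure D3:**
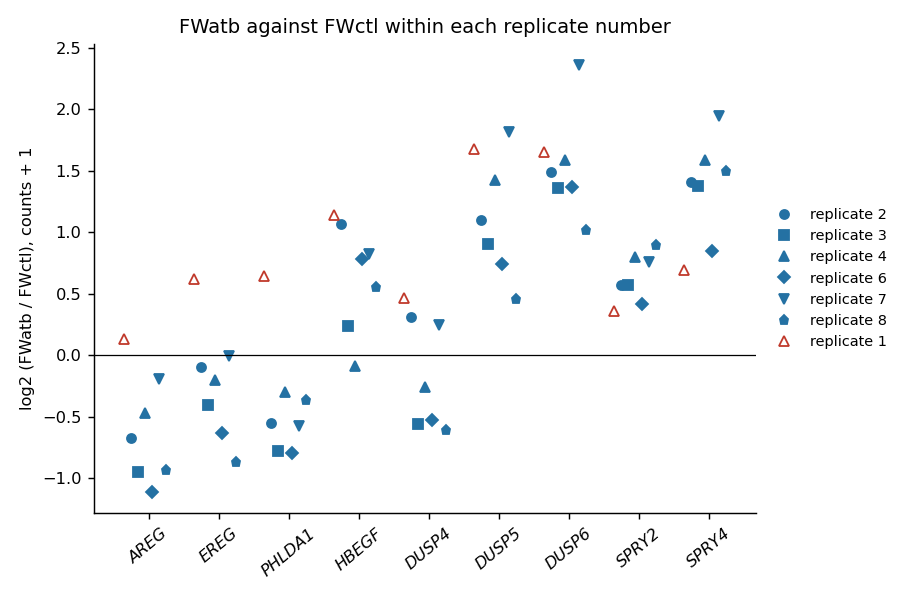
Log2 ratio of FWatb to FWctl normalised counts (pseudocount 1, vertical axis) within each replicate number for the tested members. Filled symbols are the 6 pairs used and the open triangle is the pair of FWctl replicate 1. The filled DUSP6 points run from 1.02 to 2.36, all above 0, and the filled AREG points from -1.11 to -0.19, all below 0.

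FWctl replicate 1 had 1754 normalised reads of AREG, above all PBS samples and below the other FWctl samples. EREG (1751), SPRY2 (110.8) and SPRY4 (145) were within the PBS range, while DUSP6 (75.8) and HBEGF (52.1) were within the range of the other FWctl samples. DUSP4 (4.89), DUSP5 (47.2) and PHLDA1 (246.8) lay below both groups. In its pair, AREG, EREG and PHLDA1 were higher under FWatb, by 0.13, 0.62 and 0.64 on the log2 scale, unlike the other 6 pairs.

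Against ATB, the drugs themselves, FWatb had 6 members called higher and 0 lower of 9 tested, where 7.66% of all genes were called higher and 6.86% lower. DUSP6 was 1.48 higher (log2 scale, SE 0.16, adjusted p = 1.1e-08), SPRY4 0.70 (SE 0.14, adjusted p = 0.000317) and SPRY2 0.50 (SE 0.11, adjusted p = 0.00109). EREG (0.44), AREG (0.28) and PHLDA1 (0.28) also passed but lost their call with the ribosomal DNA set as a term (adjusted p = 0.168, 0.136 and 0.0589). AREG and PHLDA1 lost it with FWctl replicate 1 in the fit as well (adjusted p = 0.215 and 0.195). Leaving out 1 library ended the AREG call in 10 fits (FWatb replicates 1, 3, 4, 7 and 8, ATB replicates 1, 3 and 4, PBS replicate 2 and FWctl replicate 4) and the PHLDA1 call in 6 (FWatb replicates 1, 4 and 8 and ATB replicates 1, 3 and 4), with adjusted p up to 0.112 and 0.144. DUSP5, at 0.52 (adjusted p = 0.0515), did not pass but did in 9 fits that left out 1 library, with 0.0136 without ATB replicate 2.

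The wider pathway was described from gene lists by role. Their counts under FWctl stand beside all tested genes, of which 24.3% were called higher and 22.1% lower against PBS. Of the 4 tested ligands outside the set, 2 rose under FWctl against PBS and 0 fell, with a median log2 fold change of 0.75 against 0.02 over all genes. BTC, which encodes betacellulin, had 0.73 to 7.48 normalised reads under PBS and 7.98 to 35.6 under FWctl, without overlap, and rose by 2.99 on the log2 scale (SE 0.46, adjusted p = 7.79e-07). Under FWatb it was 1.25 to 6.72, lower than FWctl by -2.41 (SE 0.38, adjusted p = 7.38e-07). These values rest on 1 to 6 reads per sample under PBS and under FWatb, and 5 to 33 under FWctl. EPGN, the epigen gene, rose by 1.20 under FWctl (SE 0.46, adjusted p = 0.032) at 3 to 13 reads, and lost the call in the libraries of high ribosomal DNA share (adjusted p = 0.295), by DESeq2 (adjusted p = 0.0558), and when single libraries were left out (adjusted p up to 0.117). Of the 4 ligand genes of the chromosome 4 neighbourhood, AREG, EREG and BTC were called higher under FWctl than PBS and lower under FWatb than FWctl. EPGN was at -0.96 under FWatb against FWctl (adjusted p = 0.0462), a call lost with the replicate number as a block (adjusted p = 0.0741), by DESeq2 (0.0728), with the library set as a term (0.154), in the libraries of high share (0.192) and with single libraries left out (up to 0.121). EGF itself, which lies elsewhere on the chromosome, was 58.7 to 68.5 under PBS and 67.0 to 103.6 under FWctl (0.30, adjusted p = 0.115), and 27.3 to 59.2 under FWatb, 0.84 below FWctl (SE 0.15, adjusted p = 5.07e-06). The neuregulin NRG4 did not pass, and NRG1, NRG2 and NRG3 were too low to test.

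Receptor transcripts moved in both directions. Of 3 tested receptors 2 fell and 1 rose under FWctl, where 22.1% of all tested genes were called lower and 24.3% higher. EGFR was 1485 to 1612 normalised reads under PBS, 705.3 to 1249 under FWctl and 1238 to 1533 under FWatb, and fell by 0.69 (SE 0.09, adjusted p = 5.07e-08) under FWctl. ERBB2, the partner receptor without a ligand of its own, was 2083 to 2439 under PBS, 1061 to 1487 under FWctl and 1958 to 2394 under FWatb, and fell by 0.84 (SE 0.08, adjusted p = 3.91e-11). Neither receptor passed under FWatb against PBS. ERBB3, the kinase-impaired neuregulin receptor, rose by 0.18 (SE 0.07, adjusted p = 0.032). This call was lost with FWctl replicate 1 in the fit (adjusted p = 0.0872) and in the libraries of high ribosomal DNA share (log2 fold change 0.17, adjusted p = 0.199). ERBB4 had at most 10 reads and was not tested.

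Of the 4 ligand shedding genes, 2 were higher and 2 lower under FWctl against PBS. Over all tested genes, 24.3% were called higher and 22.1% lower. The protease ADAM17, which sheds AREG, EREG and HBEGF, was 0.37 higher (SE 0.07, adjusted p = 3.18e-05) and ADAM10, which sheds EGF and BTC, lower with a log2 fold change of -0.45 (SE 0.07, adjusted p = 5.68e-07). The iRhom genes RHBDF1 and RHBDF2, whose products carry ADAM17 to the cell surface, were at -0.32 (adjusted p = 0.0441) and 0.41 (adjusted p = 0.0299), and both overlapped PBS. The RHBDF1 call was lost in the libraries of high ribosomal DNA share (log2 fold change -0.44, adjusted p = 0.0683) and with single libraries left out (up to 0.115). The RHBDF2 call was lost with all 22 samples (adjusted p = 0.0593), in the libraries of high share (log2 fold change 0.36, adjusted p = 0.221) and with single libraries left out (up to 0.231). Under FWatb RHBDF2 was 0.60 above PBS (SE 0.15, adjusted p = 0.00737) without overlap. That call was lost in the libraries of high share (log2 fold change 0.60, adjusted p = 0.0729) and without PBS replicate 3 (0.0635).

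In the cascade from adaptor to ERK, 4 of 14 genes rose and 5 fell under FWctl, with a median of 0.03. All tested genes had 24.3% called higher, 22.1% lower and a median of 0.02. The adaptor SHC1 (0.79, adjusted p = 7.8e-09) and the RAS exchange factor SOS1 (0.67, adjusted p = 1.95e-07) rose, whereas MAPK3, which encodes ERK1 (-0.88, adjusted p = 1.04e-09), fell. SHC1, SOS1 and MAPK3 had the largest changes under FWctl of the 14 and were named for that. Their lack of overlap with PBS under FWctl, and values nearer to PBS under FWatb, follow in part from that choice. Under FWatb only MAPK3 passed among these 3 (-0.35, adjusted p = 0.0121). The MAPK3 call was lost in the libraries of high share (log2 fold change -0.37, adjusted p = 0.0716) and without PBS replicate 2 or 3 (up to 0.0559).

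Feedback genes outside the set did not fall as a group. Of 9 tested, 2 rose and 2 fell under FWctl (24.3% and 22.1% of all tested genes), with a median of 0.01. The phosphatase DUSP9 was 127.3 to 168 normalised reads under PBS and 61.6 to 84.7 under FWctl, a change of -0.998 (SE 0.11, adjusted p = 1.18e-09), and SPRED3, a Sprouty relative, changed by -0.92 (adjusted p = 0.0122). SPRED3 had 15 to 28 reads per sample under PBS and 2 to 19 under FWctl, and these groups overlapped in normalised reads. ERRFI1, which encodes the EGFR inhibitor MIG6, rose by 0.79 (SE 0.10, adjusted p = 1.76e-08) from 239.2 to 256.8 under PBS to 377.3 to 531 under FWctl, and SPRY1 by 0.33 (adjusted p = 0.00996). The SPRY1 call was lost with FWctl replicate 1 in the fit (adjusted p = 0.0773) and in the libraries of high ribosomal DNA share (log2 fold change 0.26, adjusted p = 0.189). Of 4 other MAP kinase phosphatases tested, 1 rose under FWctl, DUSP1, by 1.27 (SE 0.14, adjusted p = 1.98e-10), from 106.4 to 147.1 normalised reads under PBS to 218.6 to 440.8.

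**Figure D4:**
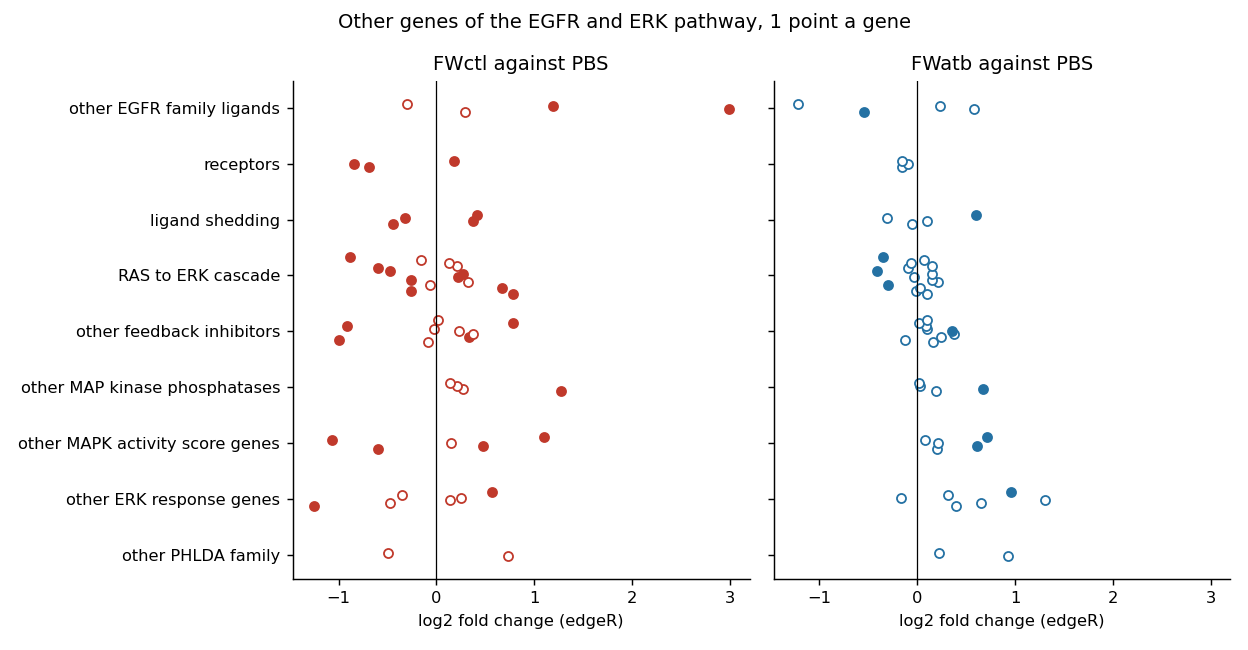
Log2 fold change against PBS (horizontal axis) of each tested gene of the other pathway lists, under FWctl (left) and FWatb (right), 1 point a gene, filled where the adjusted p is under 0.05. The farthest point under FWctl is BTC at 2.99, and the 3 receptors run from -0.84 to 0.18.

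Other response genes were mixed as well. Of the 5 remaining genes of a published transcript score of MAPK activity, to which DUSP4, DUSP6, SPRY2, SPRY4 and PHLDA1 also belong, 2 rose and 2 fell under FWctl. The shares of all tested genes were 24.3% and 22.1%. ETV4, an ETS transcription factor, was 942.6 to 1237 normalised reads under PBS, 400 to 615.8 under FWctl and 883.4 to 1250 under FWatb, a change of -1.07 (SE 0.10, adjusted p = 2.51e-12) under FWctl. CCND1, the cyclin D1 gene, changed by -0.60 (SE 0.08, adjusted p = 8.19e-09). ETV5, a relative of ETV4, went the other way, by 1.10 (SE 0.16, adjusted p = 2.55e-07). So did the ephrin receptor gene EPHA2 by 0.48 (adjusted p = 0.000703), a call lost in the libraries of high ribosomal DNA share (log2 fold change 0.32, adjusted p = 0.11). Under FWatb against ATB, 4 of these 5 genes were called higher, where 7.66% of all tested genes were. The CCND1 call was lost with the library set as a term (adjusted p = 0.0716).

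Of 6 tested immediate-early and other ERK response genes, 1 rose (MYC) and 1 fell (EGR1) under FWctl. Among all tested genes 24.3% rose and 22.1% fell. EGR1, an immediate-early transcription factor, was 21.5 to 33.7 normalised reads under PBS, 8.96 to 18.5 under FWctl, 21.9 to 55 under FWatb and 156 to 181.3 under ATB. It fell by 1.26 under FWctl (log2 scale, SE 0.24, adjusted p = 3.21e-05) and rose by 2.62 under ATB (SE 0.18, adjusted p = 2.52e-13), a 6.16-fold rise, while FWatb was below ATB by -2.23 (SE 0.15, adjusted p = 1.59e-13). DESeq2 gave no adjusted p for EGR1 under ATB. DUSP1 also rose under ATB, by 0.89 (SE 0.15, adjusted p = 0.000964), a call lost with FWctl replicate 1 in the fit (adjusted p = 0.22). MYC rose by 0.57 under FWctl (adjusted p = 1.96e-06) and by 0.96 under FWatb (adjusted p = 2.51e-09). PHLDA2 and PHLDA3, the relatives of PHLDA1, had at most 14 reads and did not pass.

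Among 9365 genes with a mean of at least 100 normalised reads, those whose 3 log2 fold changes against PBS lay nearest to a member's were found by Euclidean distance, as a description of these 21 samples. ETV4 was nearest to DUSP5 (distance 0.072), followed by NOTCH1 (0.186). SPTBN1 (0.173) and THBS1 (0.176) were nearest to AREG, and SRM (0.134) and UTP20 (0.135) to EREG. DUSP6 had no close neighbour, with NOX1 at 0.287 and ID1 at 0.396. FBLN2 (0.134) and FSBP (0.192) were nearest to SPRY4, and SH2D3A (0.072) and PCDH1 (0.111) to SPRY2. HBEGF was nearest to ZNF587 and DYNLT1 (both 0.033), PHLDA1 to USP19 and DPH1 (both 0.032), and DUSP4 to B3GALNT1 (0.101) and TMX4 (0.102).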

How the data were processed

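From stranded total RNA libraries, the authors trimmed reads (Trimmomatic 0.38), mapped them to GRCh38 (HISAT2 2.1.0) and counted them on Ensembl 105 genes (featureCounts, Subread 2.0.0). The deposited values are the authors' raw counts, neither normalised nor filtered. Whether featureCounts used strand is not given in the sources used here, so reads of overlapping antisense genes may be mixed. Symbols and coordinates came from GENCODE 44 (61369 of 61487 identifiers found, 42045 with a symbol). No protein features were analysed here.

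Counts were fitted with edgeR 4.0.16 (R 4.3.3, TMM, quasi-likelihood test, Benjamini-Hochberg) in 1 model of 4 groups and 21 samples, over 20373 genes in which 3 or more samples exceeded 5 counts. The scripts were tested on simulated data. Normalised reads are scaled to an effective depth of 12576184. FWctl replicate 1 was taken as the FWctl sample the study left out. No source states separate cultures for PBS or ATB samples, so p-values there may measure technical spread. No 2 replicates agreed within counting error (54 pairs, chi-square over its degrees of freedom at least 3.95). By the study's methods each mouse gave faeces before and under antibiotics, but the labels do not tie the replicate numbers to mice. Deviations of same-numbered FW samples from the group means correlated at 0.046 on average over 6 pairs (-0.002 to 0.123, 2 of them over 0.1), against -0.008 between other numbers.

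Members and lists were chosen with earlier results of these data known. The text names all members, tested ligands and receptors, up to 4 genes of each other list with the largest change under FWctl, and the 2 nearest profiles of each member. Alternatives were all 22 samples, DESeq2 1.42.0, other scalings and filters, fits of 2 groups, the ribosomal DNA set (divided at 0.5%), the replicate number as a block, and each sample left out. Some results are left out of the text.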

Additional observations from a re-analysis of the deposited data

Results flagged for a closer look

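DUSP6 moved in opposite directions under the 2 faecal waters: it was below PBS under FWctl and above it under FWatb, and the difference between these effects, 1.55 on the log2 scale, was tested directly (edgeR's quasi-likelihood test, adjusted p = 6.33e-12). FWctl replicate 1, which no comparison of the main model used, had 1754 normalised reads of AREG, above every PBS sample but below the other FWctl samples. No other member of this sample was above every PBS sample. EREG, SPRY2 and SPRY4 were within the PBS range, and HBEGF, DUSP4, DUSP5, DUSP6 and PHLDA1 below it. EREG and PHLDA1 were called higher under FWctl without this sample. In 36 groups of 4 to 7 samples, no sample stood apart from its group by Dixon's test, where chance gives about 1.8.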

How the results depend on the processing

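The 8 calls among members kept their direction and side of the threshold for FWctl against PBS in every alternative run except HBEGF in the libraries of high ribosomal DNA share, and for FWatb against FWctl except EREG where FWctl replicate 1 was in the fit, and except where a larger fold change was required. With the replicate block, the 6 FW pairs gave 8 members and 9806 genes called, and no member's call changed. With all 7 pairs, a block chosen after seeing the data, the numbers were 7 and 9178. Requiring a log2 fold change beyond 1 as well left 3 members and 2590 genes. For FWatb against PBS, library size alone gave 5 members, and all 22 samples or only the libraries of high ribosomal DNA share gave 1227 or 1082 genes in place of 2035. For ATB against PBS, 1 member was called without a filter on low counts and 1 in a fit of the 2 groups, and the genes called, 58, became 5 with all 22 samples, 208 by DESeq2, 14 by library size alone and 111 without a filter. For FWatb against ATB, 3 members were called with the library set as a term. Small values turned for FWatb against PBS: HBEGF (-0.05) was 0.032 by library size alone, 0.238 in the libraries of high share, 0.091 with the set as a term and -0.174 to 0.109 with samples left out (positive without PBS replicate 4), and DUSP5 (0.09) was -0.014 with the set as a term and -0.120 to 0.288 with samples left out (negative without PBS replicate 1 or FWatb replicate 7). The cause was not tested.

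Leaving out each sample in turn gave 8 to 9 members and 8710 to 9617 genes for FWctl against PBS, 3 to 5 members and 1222 to 2569 genes for FWatb against PBS (most members without FWatb replicate 6, fewest genes without PBS replicate 2), 0 members and 7 to 93 genes for ATB against PBS (beyond 1.5 times the count in 13 of 21 fits), 8 members and 9354 to 10061 genes for FWatb against FWctl, and 4 to 7 members and 2069 to 3419 genes for FWatb against ATB. No fit of ATB was made within the libraries of high share, which hold 1 ATB sample. They hold 2 PBS samples, so fits there against PBS rested on fewer samples than the main model. Depth limits DUSP4, EPGN and TGFA, with at most 32, 13 and 2 reads. It also limits BTC, with 1 to 6 reads under PBS and under FWatb, and SPRED3, with 2 to 19 under FWctl.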
